A study of Rattus norvegicus with 16 samples.

Results

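The thin filament of the heart muscle sarcomere was described here through 10 genes for troponins, tropomyosins, actins and an actin-nucleating protein, in the hearts of 16 rat pups aged 2 days. The genes were Tnni1, Tnni3, Tnnt1, Tnnt2, Tnnc1, Tpm1, Tpm2, Acta1, Actc1 and Lmod2. Each was read from the brightest probe set that the array's annotation ties to that symbol alone. Every one of the 10 genes had exactly 1 such probe set, so all 10 were measured, out of 27342 probe sets in the table. Each strain, HHR and NHR, gave 4 females and 4 males. HHR, the Hypertrophic Heart Rat, is a strain whose hearts are labelled hypertrophic, and NHR, the Normal Heart Rat, is the control strain, labelled with normal heart size. No treatment was named in the labels other than the killing of the pups with pentobarbitone. Each array (Affymetrix Rat Gene 1.0 ST) carried the heart RNA of 1 animal without pooling. The labels name ventricles dissected from the atria in one place and the whole heart in another. The labels name no litters or processing batches, and neither can be told apart from strain.

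Thin filaments are actin polymers that carry tropomyosin along their length and a troponin complex at regular intervals. Calcium binding to troponin C relieves the block set by troponin I, and troponin T ties the complex to tropomyosin, so that tropomyosin shifts and myosin can bind actin. In the rodent heart the fetal troponin I (Tnni1, the slow skeletal form) gives way to the cardiac form (Tnni3) around birth, and skeletal alpha-actin (Acta1) is expressed beside cardiac alpha-actin (Actc1) in the fetal and newborn ventricle.

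All values are on the log2 scale and come from RMA, which removes background, puts the arrays on a common scale and gives 1 value per probe set. Differences are HHR minus NHR on this log2 scale, from limma over all 16 arrays, with Benjamini-Hochberg adjustment over all probe sets and a threshold of 0.05. Array medians lay between 7.19 and 7.28. For strain, 20.7% of all probe sets passed. They comprised 9.64% of probe sets that were higher and 11% that were lower in HHR, and the median difference over all probe sets was -0.03. After median centring of the arrays the strain calls split into 2946 higher and 2283 lower, where the deposited values gave 2636 higher and 3015 lower. A component analysis of the deviations from the group means put 26.7% of that variation on its first component. HHR arrays scored -3.72 to 7.48 on it and 5 NHR arrays scored -16.9 to 1.74. NHR female 3, NHR female 4 and NHR male 4 scored 14.4, 15.1 and 22.6, apart from the rest of their strain. Scores are taken from each group's own mean, so high scores in a group go with low ones. NHR female 1 and 2 scored -16.9 and -12.6, and NHR male 1 and 2 scored -11.1 and -13.2. The scores do not tell which NHR arrays are typical, and leaving out the low-scoring arrays together was not run. Calls on the members and on the gene and marker lists that change without these 3 arrays are named beside them. What sets the 3 arrays apart was not tested.

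In HHR hearts, 3 of the 10 thin filament genes fell, none rose, and the other 7 did not pass. The 3 were cardiac troponin I (Tnni3), cardiac troponin C (Tnnc1) and alpha-tropomyosin (Tpm1), and each differed by less than 15%. That is 3 of 10 lower, where 11% of all probe sets were lower. The median difference of the 10 genes was -0.05, against -0.03 over all probe sets. The median size of the difference, whatever its sign, was 0.10 in the 10 genes and 0.08 over all probe sets. Without the 3 NHR arrays apart, 0 of the 10 genes passed limma's adjusted threshold, where 14.6% of all probe sets passed. In that setting 3 of the 10 had an unadjusted p under 0.05, where 7674 of all 27342 probe sets did. At an adjusted p under 0.01, 1 of the 10 genes passed, Tnnc1, where 10.6% of all probe sets did. With a minimum change of 1.5-fold 0 of the 10 passed, where 0.838% of all probe sets did. Of 4 heart muscle markers 3 were lower in HHR, as the 3 genes were, and Pln did not pass (0.03, limma adjusted p = 0.656). The mean log2 level of the list ran from 12.94 to 13.07 over HHR arrays and from 13.07 to 13.22 over NHR arrays. Markers of other tissues, which moved in both directions, are given further below. The part of any of these markers in the result was not tested.

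**Figure D1:**
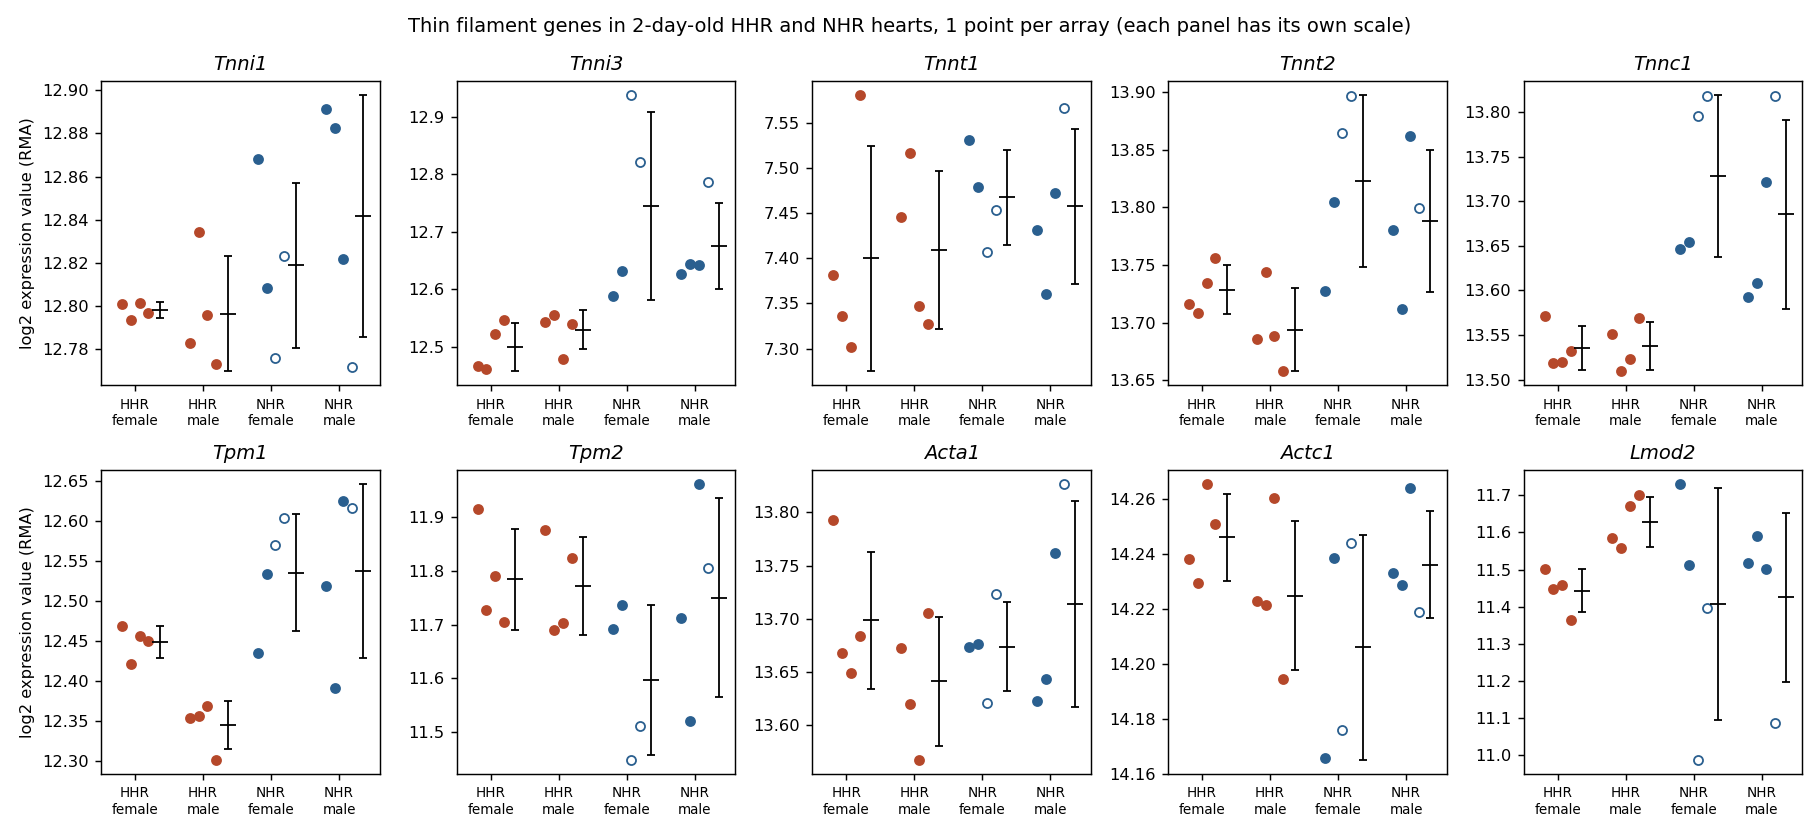
Log2 expression values of the 10 thin filament genes on each array, with the HHR groups on the left and the NHR groups on the right (females before males), with the group mean and SD (n = 4) beside the points; open circles are the 3 NHR arrays apart and each panel has its own vertical scale. The HHR arrays of Tnni3 and Tnnc1 all lie below the lowest NHR array, and the open circles are the highest NHR values of both genes.

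Tnni3 encodes the troponin I of adult heart muscle. Its values were 12.47, 12.46, 12.52 and 12.55 in HHR females and 12.54, 12.56, 12.48 and 12.54 in HHR males. They were 12.59, 12.63, 12.94 and 12.82 in NHR females and 12.63, 12.64, 12.64 and 12.79 in NHR males. All 8 HHR arrays lay below the lowest NHR array, an arrangement found in that direction for 2.2% of all probe sets. Tnni3 averaged 12.51 ± 0.04 in HHR and 12.71 ± 0.12 in NHR (SD, n = 8 each). It fell by 12.7% in HHR (log2 difference -0.20, SE 0.05, 95% interval -0.30 to -0.09, limma adjusted p = 0.0102). The 3 highest NHR values belonged to the 3 NHR arrays apart. Without them the NHR values ran from 12.59 to 12.64, and the difference was -0.11 (limma adjusted p = 0.0731). Leaving out the highest NHR values cannot make the strains overlap, so the lack of overlap in that setting is no further check. In bulk tissue, fewer muscle cells and less RNA per muscle cell cannot be told apart, for this and every gene that follows. A sequence variant between the strains under a probe also cannot be told apart from a change in RNA level.

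Tnni1, the troponin I of slow skeletal muscle and the form of the fetal heart, did not pass. Its values ran from 12.77 to 12.83 in HHR, with a median of 12.80, and from 12.77 to 12.89 in NHR, with a median of 12.82. The strains overlapped, and the 4 HHR females lay within 0.01 of each other (12.79 to 12.80). Tnni1 averaged 12.80 ± 0.02 in HHR and 12.83 ± 0.05 in NHR (SD, n = 8 each; log2 difference -0.03, 95% interval -0.11 to 0.04, limma adjusted p = 0.546). The interval bounds a fall in HHR at 0.11 and a rise at 0.04 on the log2 scale, which does not show that the strains are alike.

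The balance of fetal against adult troponin I was taken within each array, as the log2 value of Tnni1 minus that of Tnni3. Such a difference does not change when a whole array is shifted up or down, though it can under normalizations that depend on signal, and only its difference between strains can be read, since signals of separate probe sets are not on a common scale. It averaged 0.28 ± 0.04 in HHR and 0.12 ± 0.16 in NHR (SD, n = 8 each). In HHR it ran from 0.23 to 0.33 and in NHR from -0.16 to 0.28, so that 3 of 8 HHR arrays exceeded every NHR array. The balance was higher in HHR by 0.16 (exact two-sided permutation test over 12870 assignments of the arrays, p = 0.0054, adjusted p = 0.0109 over the 4 balances computed). The lowest NHR values were -0.16, 0.00 and -0.01, on NHR female 3, NHR female 4 and NHR male 4. Without these arrays the shift was 0.06 (exact permutation p = 0.0544, adjusted p = 0.109).

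Tnnc1 encodes the calcium-binding troponin C shared by heart and slow skeletal muscle. Its values were 13.57, 13.52, 13.52 and 13.53 in HHR females and 13.55, 13.51, 13.52 and 13.57 in HHR males. They were 13.65, 13.65, 13.80 and 13.82 in NHR females and 13.59, 13.61, 13.72 and 13.82 in NHR males. Here too all 8 HHR arrays lay below the lowest NHR array. Tnnc1 averaged 13.54 ± 0.02 in HHR and 13.71 ± 0.09 in NHR (SD, n = 8 each), and fell by 11.1% (log2 difference -0.17, SE 0.04, limma adjusted p = 0.00990). Tnni3 and Tnnc1 were thus 2 of 10 genes without overlap between the strains, where 4.15% of all probe sets had none in either direction. Without the 3 NHR arrays apart the highest NHR value of Tnnc1 was 13.72, and the difference was -0.11 (limma adjusted p = 0.0836).

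Tnnt2, the cardiac troponin T that anchors the complex to tropomyosin, ran from 13.66 to 13.76 in HHR (median 13.71) and from 13.71 to 13.90 in NHR (median 13.80). Of its 8 HHR arrays, 4 lay below the lowest NHR array. Its log2 difference was -0.09 (SE 0.04, 95% interval -0.18 to -0.01, limma adjusted p = 0.0902). It did not pass as deposited, and passed after quantile normalization of the deposited values (-0.14, adjusted p = 0.0113), after cyclic loess (-0.16, adjusted p = 0.00694), with trended and robust moderation (adjusted p = 0.0368) and without NHR female 1 (adjusted p = 0.0491). The range of its adjusted p over all alternatives was 0.00694 to 0.348. Tnnt2 is spliced into several forms during heart development, and a probe set that sums over the transcript does not separate them.

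Tnnt1, the slow skeletal troponin T, had a mean at the 52.8 percentile of all probe set means, whereas the means of the other 9 members stood above the 95th. The values come without a background level, so whether this probe set had signal at all was not tested. Tnnt1 ran from 7.30 to 7.58 in HHR (median 7.36) and from 7.36 to 7.57 in NHR (median 7.46), and the strains overlapped. Its log2 difference was -0.06 (95% interval -0.16 to 0.05, limma adjusted p = 0.444). The balance of Tnnt1 minus Tnnt2 did not differ beyond the spread of the arrays, at -6.31 ± 0.08 in HHR and -6.34 ± 0.09 in NHR (SD, n = 8 each; shift 0.04, exact permutation p = 0.415, adjusted p = 0.415). After cyclic loess the shift was 0.14 (exact permutation p = 0.0124, adjusted p = 0.0166). In the RefSeq annotation of assembly GRCr8, Tnni3 and Tnnt1 are neighbours with 0 protein-coding genes between them, and Tnni1 and Tnnt2 have 1 between them, Lad1. Within each pair of neighbours, 1 gene or none passed for strain.

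Tpm1 encodes alpha-tropomyosin, the main tropomyosin of the adult rodent heart, and is spliced into several forms that its probe set does not separate. Its values were 12.47, 12.42, 12.46 and 12.45 in HHR females and 12.35, 12.36, 12.37 and 12.30 in HHR males. They were 12.44, 12.53, 12.57 and 12.60 in NHR females and 12.52, 12.39, 12.63 and 12.62 in NHR males. All 4 HHR males lay below the lowest NHR array, whereas the HHR females overlapped the NHR range. Tpm1 averaged 12.40 ± 0.06 in HHR and 12.54 ± 0.09 in NHR (SD, n = 8 each), and fell by 9.26% (log2 difference -0.14, SE 0.04, limma adjusted p = 0.0252). It did not pass without NHR female 4 (-0.13, adjusted p = 0.0513), without NHR male 3 (-0.13, adjusted p = 0.0558) or without the 3 NHR arrays apart (-0.10, adjusted p = 0.163).

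Tpm2, beta-tropomyosin, is found in skeletal muscle and in the developing heart. It ran from 11.69 to 11.91 in HHR (median 11.76) and from 11.45 to 11.96 in NHR (median 11.70), with the HHR arrays inside the NHR range. It averaged 11.78 ± 0.09 in HHR and 11.67 ± 0.17 in NHR (SD, n = 8 each; log2 difference 0.10, 95% interval -0.03 to 0.24, limma adjusted p = 0.266). The balance of Tpm2 minus Tpm1 was higher in HHR by 0.24, at -0.62 ± 0.10 in HHR and -0.86 ± 0.16 in NHR (SD, n = 8 each; exact permutation p = 0.0017, adjusted p = 0.0068 over the 4 balances). It ran from -0.74 to -0.48 in HHR and from -1.12 to -0.66 in NHR, and 3 of 8 HHR arrays were higher than any NHR array. Without the 3 NHR arrays apart the shift was 0.16 (exact permutation p = 0.0171, adjusted p = 0.0684). The troponin I and tropomyosin balances contain Tnni3 and Tpm1, which passed on their own, and are no separate support for those calls.

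**Figure D2:**
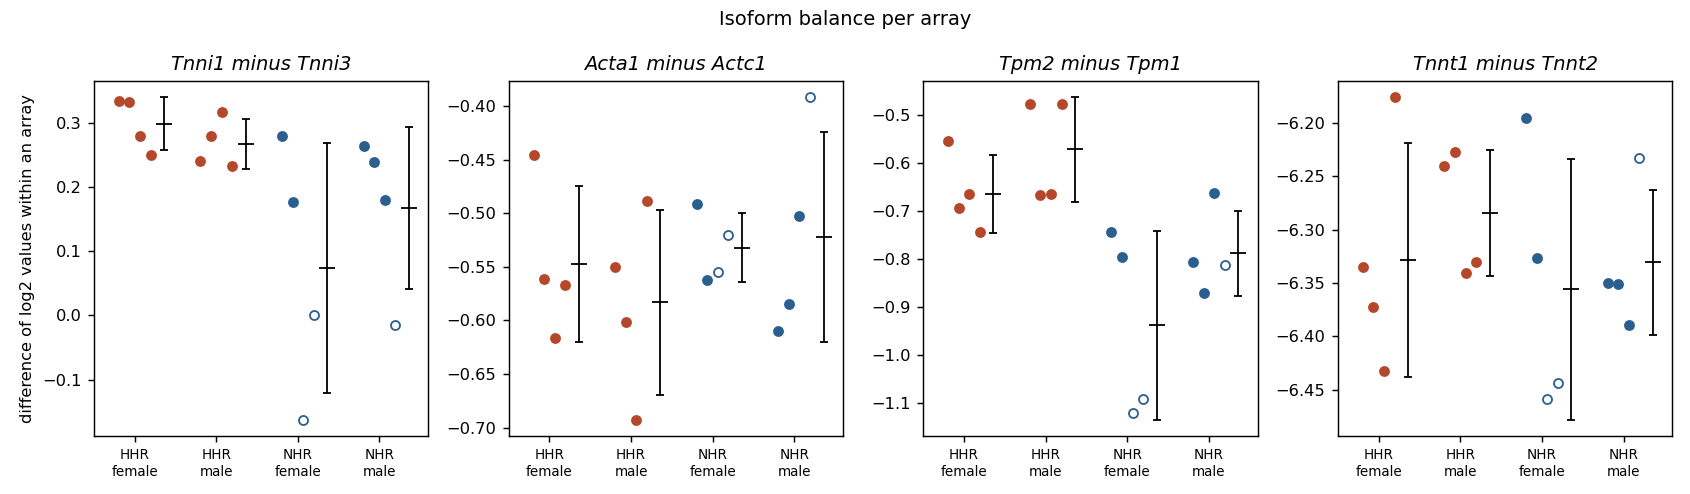
Log2 value of the fetal or skeletal isoform minus that of the adult cardiac isoform within each array, by group from HHR on the left to NHR on the right, with the group mean and SD (n = 4); open circles are the 3 NHR arrays apart. The HHR arrays sit higher for Tnni1 minus Tnni3 (shift 0.16) and Tpm2 minus Tpm1 (shift 0.24), with 3 of 8 HHR arrays above every NHR array in each and the others overlapping. The actin and troponin T balances overlap as well, with shifts of -0.04 and 0.04.

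The start regions of the genes behind these balances are printed to show what lies at each gene's start. RefSeq windows of 250 bases before to 50 bases after the gene start, on GRCr8, were matched by symbol for 9 of the 10 genes (10 windows, Tnnt2 having more than 1), and Tnnc1 is named only. They were searched on both strands for MCAT (CATTCC, bound by TEAD factors), a GATA motif (AGATAA), an E-box (CAGCTG, bound by basic helix-loop-helix factors) and the CArG box, bound by serum response factor. The motifs do not share letters in these windows. Capitals mark every match. The windows lie at chr1:78342321-78342620 on the plus strand for Tnni3, chr13:49781279-49781578 on the plus strand for Tnni1, chr8:76543366-76543665 on the minus strand for Tpm1 and chr5:62575677-62575976 on the minus strand for Tpm2, and each is written 5′ to 3′ along its gene.
Tnni3: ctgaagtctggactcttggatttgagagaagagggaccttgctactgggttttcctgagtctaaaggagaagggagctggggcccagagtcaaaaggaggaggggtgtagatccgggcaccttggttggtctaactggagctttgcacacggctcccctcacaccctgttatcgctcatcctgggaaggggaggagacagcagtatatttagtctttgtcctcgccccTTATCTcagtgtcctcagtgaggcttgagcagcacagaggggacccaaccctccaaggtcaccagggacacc
Tnni1: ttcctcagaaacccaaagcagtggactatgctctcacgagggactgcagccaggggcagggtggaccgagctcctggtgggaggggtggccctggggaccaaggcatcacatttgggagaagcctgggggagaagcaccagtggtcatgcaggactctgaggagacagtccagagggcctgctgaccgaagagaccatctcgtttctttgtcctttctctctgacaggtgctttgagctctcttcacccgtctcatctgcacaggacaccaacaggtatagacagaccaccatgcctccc
Tpm1: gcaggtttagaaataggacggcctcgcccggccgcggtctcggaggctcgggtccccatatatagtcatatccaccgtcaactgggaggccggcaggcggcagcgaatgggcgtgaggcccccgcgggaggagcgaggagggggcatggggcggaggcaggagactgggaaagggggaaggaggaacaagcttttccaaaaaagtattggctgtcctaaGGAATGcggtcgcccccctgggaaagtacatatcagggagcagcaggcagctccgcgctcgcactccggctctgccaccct
Tpm2: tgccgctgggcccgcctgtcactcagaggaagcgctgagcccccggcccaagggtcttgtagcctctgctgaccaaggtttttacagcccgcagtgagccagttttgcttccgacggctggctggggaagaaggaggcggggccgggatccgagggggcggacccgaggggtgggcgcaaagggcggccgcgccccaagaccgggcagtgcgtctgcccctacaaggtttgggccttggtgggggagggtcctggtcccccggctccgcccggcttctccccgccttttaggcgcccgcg

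Among these 4 windows, that of Tnni3 held 1 GATA match, at position -22 on the minus strand, and that of Tpm1 held 1 MCAT match, at position -31 on the minus strand. Positions give the first base of the match along the gene, with the start base counted as 0. The windows of Tnni1 and Tpm2 held 0 matches to the 4 motifs. GATA matches were found in 11.6% of 33469 RefSeq windows of the same length and MCAT matches in 14.2%. A match is a description of letters and not of a bound site.

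Skeletal alpha-actin (Acta1), a gene often followed in cardiac growth, did not pass. It ran from 13.57 to 13.79 in HHR (median 13.67) and from 13.62 to 13.83 in NHR (median 13.68), and the strains overlapped. Its log2 difference was -0.02 (95% interval -0.11 to 0.07, limma adjusted p = 0.743), so a change of more than 0.11 in either direction lies outside the interval. Cardiac alpha-actin (Actc1), the main actin of the heart, ran from 14.19 to 14.27 in HHR (median 14.23) and from 14.17 to 14.26 in NHR (median 14.23). Its log2 difference was 0.01 (95% interval -0.06 to 0.08, limma adjusted p = 0.808), and -0.06 after cyclic loess (adjusted p = 0.211). Within arrays, Acta1 minus Actc1 averaged -0.57 ± 0.08 in HHR and -0.53 ± 0.07 in NHR (SD, n = 8 each; shift -0.04, exact permutation p = 0.312, adjusted p = 0.415). The actins are highly alike in sequence, and cross-hybridisation between their probes was not tested. Actc1 and Acta1 were also among the brightest probe sets of the table, where an array's signal may be compressed, which was not tested.

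The actin start regions are shown because they are the members with a CArG box, which was found in 1.64% of the RefSeq windows. They lie on GRCr8 at chr19:68784145-68784444 for Acta1 and chr3:121271778-121272077 for Actc1, both on the minus strand, with the same marking in capitals.
Acta1: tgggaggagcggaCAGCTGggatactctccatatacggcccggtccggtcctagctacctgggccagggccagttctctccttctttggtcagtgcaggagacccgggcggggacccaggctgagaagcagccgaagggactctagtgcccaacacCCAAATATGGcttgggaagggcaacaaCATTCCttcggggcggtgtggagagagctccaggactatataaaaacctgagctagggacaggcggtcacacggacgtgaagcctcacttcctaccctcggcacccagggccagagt
Actc1: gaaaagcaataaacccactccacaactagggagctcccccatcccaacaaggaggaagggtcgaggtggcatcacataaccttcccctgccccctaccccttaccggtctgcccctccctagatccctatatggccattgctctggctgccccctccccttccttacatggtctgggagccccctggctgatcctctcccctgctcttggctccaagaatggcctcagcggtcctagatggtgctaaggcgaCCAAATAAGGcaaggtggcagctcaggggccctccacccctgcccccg

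The Acta1 window held a CArG box at position -94, an MCAT match at -67 and an E-box at -237. The Actc1 window held a CArG box at position 2. E-boxes were found in 15.1% of the RefSeq windows. Only exact matches within these windows were sought, and Tnnc1 had no window to search. Any relation of the motifs to the strain differences was not tested.

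Lmod2, leiomodin 2, nucleates actin and lengthens thin filaments at their pointed ends. Its values were 11.50, 11.45, 11.46 and 11.36 in HHR females and 11.59, 11.56, 11.67 and 11.70 in HHR males. They were 11.73, 11.51, 10.99 and 11.40 in NHR females and 11.52, 11.59, 11.50 and 11.09 in NHR males. NHR female 3 and NHR male 4 were the lowest of the 16 arrays, and the HHR arrays lay inside the NHR range. Lmod2 averaged 11.54 ± 0.12 in HHR and 11.42 ± 0.25 in NHR (SD, n = 8 each; log2 difference 0.12, 95% interval -0.07 to 0.31, limma adjusted p = 0.368). Without the 3 NHR arrays apart the sign turned, to -0.04 (adjusted p = 0.629).

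**Figure D3:**
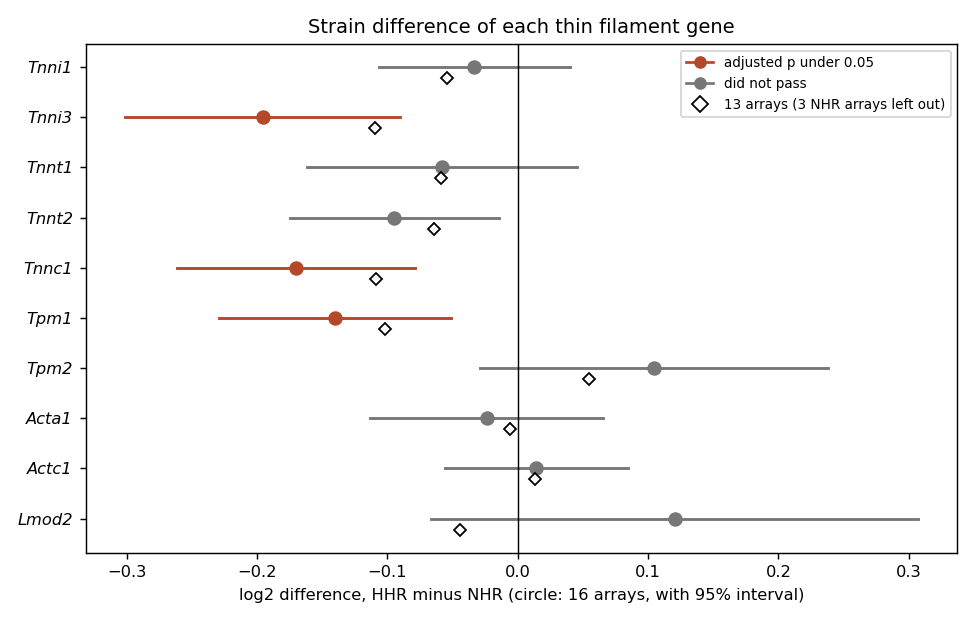
Log2 difference, HHR minus NHR, of each of the 10 genes over all 16 arrays (circles, with 95% intervals; red where the adjusted p was under 0.05) and over 13 arrays without the 3 NHR arrays apart (open diamonds). Tnni3, Tnnc1 and Tpm1 fell, and their diamonds lie nearer to 0, at -0.11, -0.11 and -0.10.

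The strain difference was also fitted within each sex. In females, Tnni3 (log2 difference -0.25, SE 0.07, limma adjusted p = 0.0309) and Tnnc1 (-0.19, SE 0.06, adjusted p = 0.0482) fell and 8 genes did not pass, where 12% of all probe sets passed and 6.21% were lower. NHR female 3 and NHR female 4 had the highest Tnni3 and Tnnc1 among the NHR females, and without either array neither gene passed in females. Without the 3 NHR arrays apart the female differences were -0.11 for Tnni3 (limma adjusted p = 0.324) and -0.11 for Tnnc1 (adjusted p = 0.321), and 4.53% of all probe sets passed. Over the 16 arrays left out singly, the adjusted p of Tnni3 in females ran from 0.0105 to 0.105 and its call was lost with 5 of them, which included HHR female 1, 2 and 3. That of Tnnc1 ran from 0.0307 to 0.144, and its call held only without NHR female 1 or 2 or NHR male 1, 2 or 4. In males 0 of the 10 genes passed, where 4.02% of all probe sets passed. An unadjusted p under 0.05 in males was found for 2 of the 10 genes and for 5313 of all 27342 probe sets. The male differences were -0.15 for Tnni3 (adjusted p = 0.270), -0.15 for Tnnc1 (adjusted p = 0.189) and -0.19 for Tpm1 (adjusted p = 0.0776), against -0.09 for Tpm1 in females (adjusted p = 0.384). Without NHR male 2, Tpm1 passed in males (-0.24, limma adjusted p = 0.0186). The test of the difference between the sexes passed for 0 of 27342 probe sets in limma, with 1390 at an unadjusted p under 0.05 and 0 of the 10 genes among them. A strain effect limited to 1 sex was therefore not shown for any of the 10. Males minus females, averaged over the strains, gave adjusted p of 0.863 or more for every one of the 10 genes, where 3 probe sets (0.011%) passed in all. Within HHR the sexes did not overlap for 2 of the 10 genes, Tpm1 and Lmod2, where 4.6% of all probe sets had no such overlap, with HHR males at 12.30 to 12.37 and HHR females at 12.42 to 12.47 for Tpm1, and HHR males at 11.56 to 11.70 and HHR females at 11.36 to 11.50 for Lmod2. Sex within HHR was not among the comparisons tested.

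The 10 genes were measured with little spread in HHR. Their median SD was 0.03 among HHR females and 0.04 among HHR males, whereas it was 0.07 among NHR females and 0.09 among NHR males. Over all probe sets the same medians were 0.09 and 0.09 in the HHR groups, against 0.12 and 0.12 in the NHR groups. Of the 10 genes, 9 stood above the 95th percentile of probe set means. Their spread was not compared with that of probe sets of like brightness. The deviations of the arrays from their group means followed each other for some genes. Over the 16 arrays, which share RNA extract and scaling between genes, Tnnt2 and Tpm1 correlated at a Pearson r of 0.862, Tnni3 and Tnnc1 at 0.751, Tnni1 and Tnnc1 at -0.803, and Tnni3 and Lmod2 at -0.910. Without the 3 NHR arrays apart (13 arrays) these values were 0.890, 0.032, -0.757 and -0.605. The relation of Tnni3 and Tnnc1 within groups was thus not seen without the 3 NHR arrays apart. That of Tnnt2 and Tpm1 was as high without them. Some pairs not listed here rose instead, such as Tnnc1 and Tpm2, from 0.108 over 16 arrays to 0.843 over 13. The 3 arrays have extreme scores on deviations of this kind, so leaving them out also narrows the range.

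**Figure D4:**
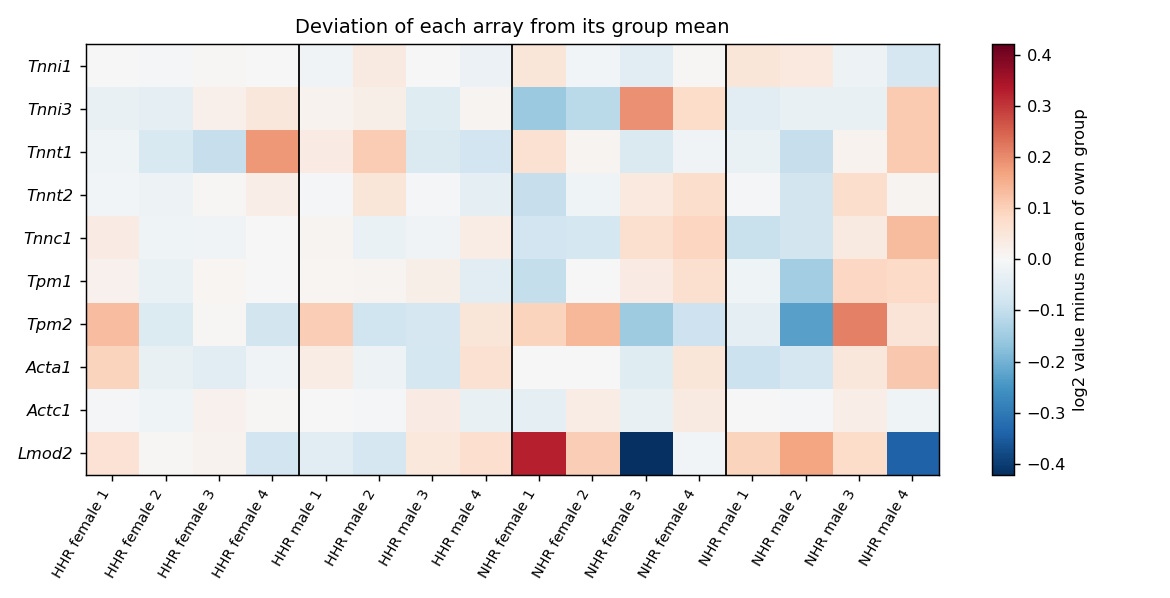
Log2 value of each gene minus the mean of its own group, for the 16 arrays (columns, HHR to the left of NHR) and the 10 genes (rows); red is above and blue below the group mean. NHR female 3 and NHR male 4 carry high Tnni3 with low Lmod2, and most HHR cells are paler than NHR cells, with Tnnt1 in HHR female 4 as an exception.

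For the 4 members with the smallest adjusted p, the 3 genes with the most similar deviations were listed over the 16 arrays. Tnnc1 was closest to Cavin2 (r = 0.961), Unc45b (0.947), a chaperone of muscle myosin, and Ctdp1 (0.940). Tnni3 was closest to Ccdc107 (0.934), Syf2 (0.930) and Tlk2 (0.929), values of 0.370, 0.607 and 0.352 without the 3 NHR arrays apart. Tpm1 was closest to Eid3 (0.939), Necab2 (0.939) and Zfp958 (0.938), and Tnnt2 to Tacc2 (0.921), Pask (0.902) and Eid3 (0.893). Among the genes listed with Tpm1 and Tnnt2 the lowest r without the 3 arrays was 0.835, for Eid3 with Tnnt2. Those listed with Tnnc1 had values of 0.902 (Cavin2), 0.850 (Unc45b) and 0.764 (Ctdp1) without the 3 arrays. For strain, 5 of the 11 genes listed fell, 1 rose and 5 did not pass, where 11% of all probe sets were lower and 9.64% higher. The 11 genes were picked for following the members, so this count is a description only. The gene that rose was Ccdc107, by 0.56 (limma adjusted p = 0.011), whereas Tnni3, the member it followed, fell.

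Of 9 other troponin, tropomyosin and actin isoforms, 8 were measured, and 2 rose, 0 fell and 6 did not pass, where 20.7% of all probe sets passed. Their median difference was 0.05, against -0.03 over all probe sets. Actg2, the gamma-actin of visceral smooth muscle, rose by 0.35 (SE 0.06, limma adjusted p = 8.5e-04), averaging 8.73 ± 0.14 in HHR and 8.38 ± 0.12 in NHR (SD, n = 8 each), with 7 of 8 HHR arrays above the highest NHR array. Tpm4, a tropomyosin of the cytoskeleton, rose by 0.21 (SE 0.06, adjusted p = 0.0201), with 6 of 8 HHR arrays above the highest NHR array, and lost its call once the 3 NHR arrays apart were left out (0.12, adjusted p = 0.137). Tpm3 differed by 0.11 (adjusted p = 0.0820) and Actg1, a cytoplasmic actin, by -0.12 (adjusted p = 0.0822). The fast skeletal troponins Tnni2, Tnnt3 and Tnnc2 lay between 6.13 and 7.08 in the mean of either strain and differed by 0.07, 0.02 and -0.0026.

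Of 16 measured genes (23 listed) that act on filament ends and actin turnover, 4 rose, 2 fell and 10 did not pass, where 9.64% of all probe sets were higher and 11% lower. Their median difference was 0.06, against -0.03 over all probe sets. Capza2 and Capza1 encode subunits of the protein that caps barbed ends at the Z disc. Capza2 averaged 12.04 ± 0.08 in HHR and 11.54 ± 0.22 in NHR (SD, n = 8 each). It rose by 0.50 (SE 0.07, limma adjusted p = 1.8e-04), and every HHR array exceeded the NHR arrays. Capza1 rose by 0.29 (SE 0.05, adjusted p = 9.9e-04), with 6 of 8 HHR arrays above. Cfl2, the muscle cofilin that severs actin filaments, averaged 13.33 ± 0.05 in HHR and 12.95 ± 0.19 in NHR (SD, n = 8 each) and rose by 0.38 (SE 0.07, adjusted p = 8.6e-04), with all 8 HHR arrays above the highest NHR array. Nrap, a scaffold of myofibril assembly, fell by 0.27 (SE 0.06, adjusted p = 0.00303), and 7 of 8 HHR arrays lay below the lowest NHR array. The remaining calls, named after their values were seen, were Cfl1 (0.18, adjusted p = 0.00803) and Tnni3k (-0.14, adjusted p = 0.0308), a kinase that binds cardiac troponin I. The capping proteins, cofilins and Nrap passed without the 3 NHR arrays apart, with differences of 0.37 for Capza2, 0.22 for Capza1, 0.26 for Cfl2, 0.17 for Cfl1 and -0.33 for Nrap, whereas Tnni3k did not (-0.11, adjusted p = 0.153). The tropomodulins Tmod1 to Tmod4, which cap pointed ends, and the capping subunit Capzb did not pass.

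Of 12 measured regulators of thin filament genes (19 listed), 1 rose, 4 fell and 7 did not pass, where 9.64% of all probe sets were higher and 11% lower. Their median difference was -0.02 and, without the 3 NHR arrays apart, -0.12. Rbm20, a splicing repressor of titin and other sarcomere transcripts, averaged 10.51 ± 0.10 in HHR and 10.92 ± 0.16 in NHR (SD, n = 8 each). It fell by 0.41 (SE 0.06, limma adjusted p = 2.0e-04), and no HHR array reached the lowest NHR value. Myocd, myocardin, a coactivator of serum response factor, fell by 0.23 (SE 0.04, adjusted p = 0.00135, 6 of 8 HHR arrays below). Abra, an actin-binding activator of the same pathway, averaged 5.92 ± 0.13 in HHR and 6.26 ± 0.17 in NHR (SD, n = 8 each) and fell by 0.34 (SE 0.07, adjusted p = 0.00322, 8 of 8 arrays below). Abra was dim, and whether its probe set had signal above background was not tested. Hopx, which restrains serum response factor, averaged 10.90 ± 0.13 in HHR and 10.55 ± 0.09 in NHR (SD, n = 8 each) and rose by 0.35 (SE 0.06, adjusted p = 4.9e-04, 8 of 8 arrays above). Rbfox2, a splicing factor named after its value was seen, fell by 0.15 (adjusted p = 0.0137). Srf itself differed by -0.0017 (95% interval -0.22 to 0.21, adjusted p = 0.993) and Gata4 by -0.01 (adjusted p = 0.947). All 5 calls held without the 3 NHR arrays apart, the highest adjusted p being 0.0481, for Rbfox2.

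**Figure D5:**
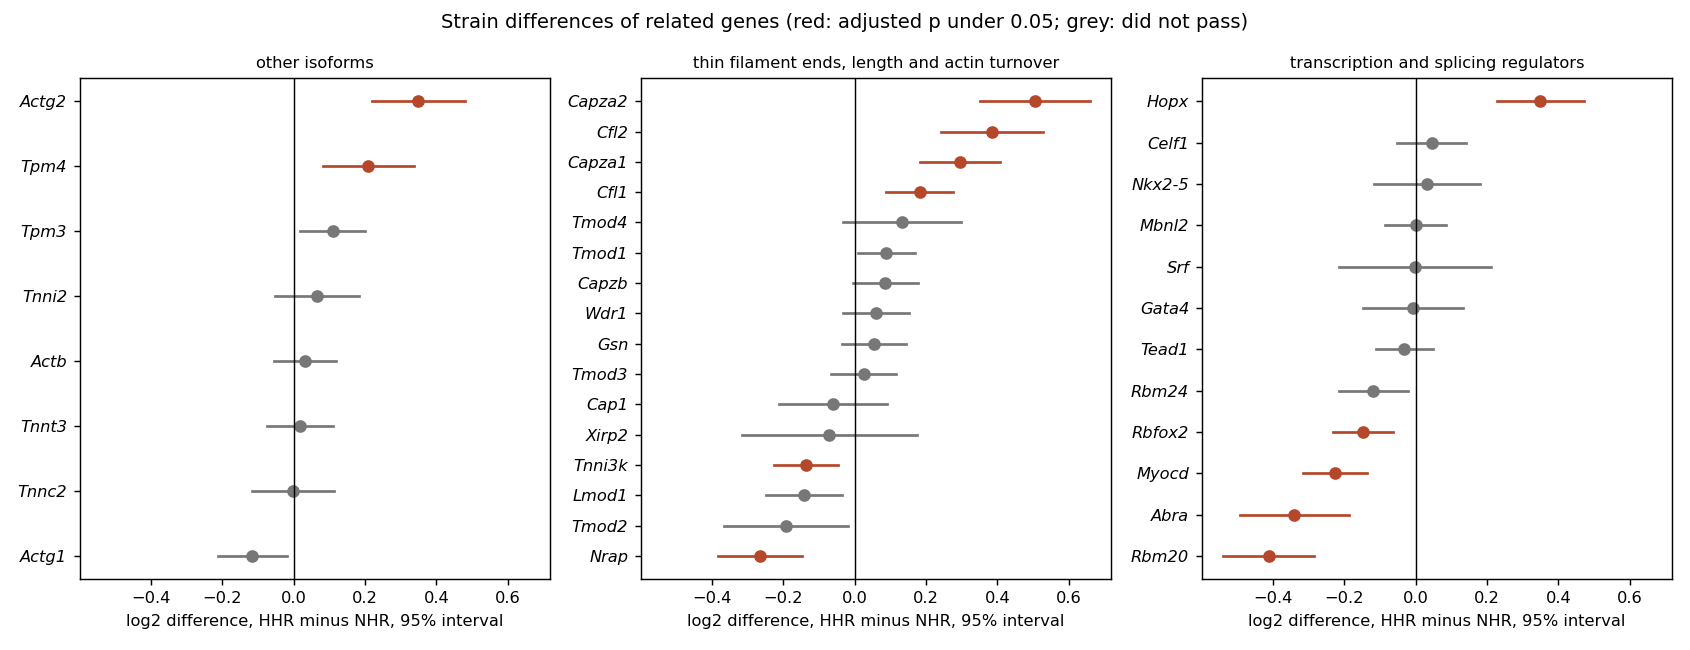
Log2 difference, HHR minus NHR, with 95% intervals, of the other thin filament isoforms, the genes of filament ends and actin turnover, and the regulators (red where the adjusted p was under 0.05, grey where not). Capza2 is the highest value shown, at 0.50, and Rbm20 the lowest, at -0.41.

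Markers were read to check the labelled tissue and for other tissue moving with the strains. Beside the counts below, 9.64% of all probe sets were higher and 11% lower in HHR. Without the 3 NHR arrays apart, 14.6% of all probe sets passed in either direction. The 3 lower heart muscle markers were Myh6, Ryr2 and Mybpc3, which fell by 0.21, 0.26 and 0.25. Of 4 ventricular markers 2 were lower (Myl2 and Myh7, both by 0.14), and without the 3 NHR arrays apart neither passed (adjusted p = 0.125 and 0.103) while Irx4 did (-0.19, adjusted p = 0.0265), with list levels of 13.05 to 13.22 in HHR and 13.20 to 13.27 in NHR. Of 4 measured atrial markers 2 were higher, Bmp10 by 1.05 and Nppa by 0.34, with list levels of 10.45 to 11.45 in HHR and 9.90 to 10.82 in NHR. Fast skeletal markers were dim, at 6.07 to 6.19 in HHR and 5.97 to 6.26 in NHR, and 1 of 9 passed, Myog, which was lower (-0.17, limma adjusted p = 0.0311), and 0 of 9 without the 3 NHR arrays apart (Myog adjusted p = 0.0828). Of 5 fibroblast markers 3 were higher (10.94 to 11.22 in HHR, 10.65 to 10.95 in NHR), and 2 without the 3 NHR arrays apart, where Pdgfra did not pass (adjusted p = 0.123). All 3 measured endothelial markers were lower (10.07 to 10.23 in HHR, 10.29 to 10.53 in NHR). Smooth muscle markers gave 1 higher and 2 lower of 4 (9.43 to 9.78 in HHR, 9.48 to 9.78 in NHR), red cell markers 1 and 1 of 3 (9.39 to 9.72 in HHR, 9.29 to 9.83 in NHR), and leukocyte markers 1 and 1 of 5 (7.73 to 8.16 in HHR, 7.66 to 8.02 in NHR). Of the smooth muscle markers, Myh11 was lower, a call lost when the 3 NHR arrays apart were left out (adjusted p = 0.0942). No marker list has a zero on this scale. The part of these lists in the strain differences above was not tested.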

How the data were processed

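RNA from 16 hearts was measured on 1 array each. The authors deposited log2 values per probe set, with RMA and limma as the tools listed in the submitters' processing notes. Versions, probe annotation and filters are not given in the sources used here. Gene symbols came from the platform annotation. Groups and replicate numbers came from the titles.

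Group means were fitted with limma 3.58.1 in R 4.3.3 to all 27342 probe sets, with moderated variances (eBayes) and p-values adjusted by Benjamini-Hochberg. Isoform balances were tested with exact permutation tests (scipy 1.17.1). The limma fit and the permutation test were checked on simulated data. Members, lists and alternatives were chosen with earlier results of these data known. The text names all 10 members, up to 4 genes of each related list by smallest adjusted p, and the 3 genes most like each of 4 members. Other list genes were named for their role or after their values were seen. Alternatives were filters, 3 further normalizations, other moderation, array weights, a replicate block, stricter thresholds, and arrays left out. Averaging over a gene's probe sets was not run, each member having 1. The number of arrays limits the precision. The p-values weigh the differences against the spread between these animals, and do not cover variation between litters or batches, which the labels do not name.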

Additional observations from a re-analysis of the deposited data

Results flagged for a closer look

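Tnni3 in NHR male 4 stood apart from its group, at 12.79 where the other 3 NHR males lay between 12.63 and 12.64. Its gap to the nearest of them was 0.898 of the range of the group, above Dixon's critical value for 4 samples. It was the only such value among 56 groups of 4 arrays tested (10 genes and 4 balances in 4 groups). Chance gives such a value in about 5% of groups, so finding 1 is no more than chance alone would give. The groups share arrays and genes and are not independent. NHR male 4 is 1 of the 3 NHR arrays apart. Without NHR male 4, Tnni3 kept its direction and its call in the strain comparison.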

How the results depend on the processing

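Over the alternatives, Tnni1, Tnnt1, Tpm2 and Acta1 kept their direction and did not pass in any of 27. Tnni3, Tnnc1 and Tpm1 kept their direction in all 27 and lost the call in 3, 2 and 5 of them, stricter thresholds included. Leaving out the 3 NHR arrays apart gave 0 members past the threshold, 1 gene of the other isoforms, 1238 probe sets within females and 0 for sex, turned the sign of Lmod2 (-0.044), and ended the calls of the balances Tnni1 minus Tnni3 (0.055, adjusted p = 0.109) and Tpm2 minus Tpm1 (0.16, adjusted p = 0.0684). That setting also tests fewer arrays. Cyclic loess turned Actc1 (-0.059) and brought the balance Tnnt1 minus Tnnt2 past the threshold (0.14, adjusted p = 0.0166). The causes were not tested. Array weights gave 2035 probe sets within males and 5 for sex. At an adjusted p under 0.01 there were 2893 probe sets for strain, 1176 within females, 332 within males, 0 for sex and 1 member. With a minimum of 1.5-fold there were 229, 334, 200, 0 and 0 members. Median centring moved the split of strain calls to 2946 higher and 2283 lower, from 2636 higher and 3015 lower as deposited. Leaving out 1 array at a time gave 4651 to 6402 probe sets for strain, 1830 to 3761 within females, 489 to 2026 within males, 0 to 1 for the interaction (1 without HHR female 3 or NHR female 2), 2 to 4 for sex and 2 to 4 members. The females' count moved by over 1.5 times without HHR female 1 (2101), NHR female 3 (2089) or NHR female 4 (1830). The males' count did so without HHR male 1 (589), 2 (518) or 4 (722), or NHR male 1 (704), 2 (2026), 3 (489) or 4 (689). With the replicate number as a block, 6145 probe sets passed for strain and the same number of members, 3. The block changed no call on a member or balance. Deviations of same-numbered arrays correlated over 0.1 in 2 of 8 pairs across strains within a sex and in 11 of 24 pairs in all. Between males and females the 4 correlations were 0.163, 0.008, 0.099 and 0.122 in HHR, and 0.367, 0.191, -0.106 and 0.302 in NHR. Not every pair was over 0.1 and 5 of 16 arrays correlated best with their own number, so the numbers were not taken to pair the arrays.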
